A study of Mus musculus with 7 samples.

Results

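Binding sites of the glucocorticoid receptor (GR, NR3C1) were examined around 9 mouse genes of inflammation that glucocorticoids are known to repress: the cytokine genes Il6, Lif and Csf1, the chemokine genes Ccl2 and Cxcl1, the enzyme genes Ptgs2 and Mmp13, and the adhesion receptor genes Vcam1 and Icam1. The genes were chosen by name. A site belonged to a gene when a ChIP-seq summit of any library lay within 100 kb of a fixed point near the start of that gene. These windows held 77 of the 35316 receptor sites of the genome. The points were given to 0.01 Mb in mm9, so a distance may be off by about 5 kb, and distances are signed along the chromosome (positive means a higher coordinate).

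The material was mouse embryonic fibroblasts, connective-tissue cells taken from embryos of dams at 14 to 17 days post coitum and used between passages 4 and 11. ChIP-seq with an in-house GR antibody gave 7 libraries. There were 2 libraries of Klf15-/- cells and 2 of wild-type cells treated with the synthetic glucocorticoid dexamethasone for 1 h. Another 2 libraries of Klf15-/- cells and 1 of wild-type cells came from cells given ethanol, the vehicle, for 1 h, and the wild-type vehicle library was made from pooled material. KLF15 is a Krüppel-like zinc-finger factor whose own gene is a glucocorticoid target. The labels name neither the kind of Klf15 allele nor separate cultures behind the libraries of a group, so their spread may be only technical. The genotype and the fibroblast identity were not checked in these data.

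Each library came as a list of peak summits with a score whose scale is unknown. The lists held between 7325 and 20169 summits, and their read depth is unknown. Summits of all lists at most 200 bp apart were joined into a site, and a list held a site when it had a summit in it. A score is given here only as a percentile, the share of the summits of that list that scored at or below it, so percentiles of different lists do not measure a change in binding. Absence from a list does not show absence of the receptor, since sites of a list were often missed by its replicate. With 2 libraries against 2, an exact permutation test cannot go below p = 0.333, so no test was made and the counts below are descriptions. The first Klf15-/- vehicle list stood apart, since 419 of its neighbouring summit pairs were no more than 200 bp apart, a count that reached 4 at most elsewhere.

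The glucocorticoid receptor waits mostly in the cytoplasm and moves to the nucleus once a ligand is bound. There it binds DNA at glucocorticoid response elements, or is brought to chromatin at sites of other factors such as AP-1 and NF-κB, which drive many inflammatory genes. Repression of cytokine, chemokine, collagenase and adhesion genes by this receptor underlies much of the anti-inflammatory use of glucocorticoids, and fibroblasts are a source of several of these proteins. Expression was not measured here, so the data show where the receptor was found and not whether a gene was repressed.

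The proximal promoter of Il6 is shown because Il6 was, with Ccl2, a gene with a site within 5 kb of its point in at least 2 lists. It comprises the 250 bases before the RefSeq start on the plus strand (chr5:30012864-30013113, GRCm38.p6), with matches to the searched motifs in capitals. The summits are in mm9 and were not placed on it.
Il6 promoter: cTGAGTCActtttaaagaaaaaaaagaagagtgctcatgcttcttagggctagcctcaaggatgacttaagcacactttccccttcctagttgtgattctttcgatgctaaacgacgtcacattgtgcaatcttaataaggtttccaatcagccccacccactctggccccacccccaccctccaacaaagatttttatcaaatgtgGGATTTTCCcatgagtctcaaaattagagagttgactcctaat
The first capitals match TGANTCA, the AP-1 motif, starting 249 bases before the start. The second match GGANTTTCC, part of the NF-κB element, starting 43 bases before it.

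Of the 9 genes, 7 were in the RefSeq promoter table, and the same 250-base windows were searched on both strands. GGANTTTCC was present for 4 of the 7 (Il6, Csf1, Cxcl1 and Icam1), against 1.07% of all 32851 promoters of the table. TGANTCA was present for 3 (Il6, Lif and Mmp13), against 6.75% of all promoters. ACANNNTGT, the inner part of the glucocorticoid response element, was found only in the Cxcl1 window, starting 85 bases before the start, and 5.84% of all promoters held it. The shorter motif AGAACA, an arm of that element, was found only in the Csf1 window, against 16.1% of all promoters. As patterns, ACANNNTGT and TGANTCA read the same on both strands, so each place they matched was counted once. No match of one motif overlapped a match of another in these windows.

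Receptor sites were found around all 9 genes, but sites held by all 4 dexamethasone lists were found around 7. Of bins of 200 kb over the genome, 36.7% had no site and 67.0% had none held by all 4 dexamethasone lists. The bins were not matched to the windows in gene density. Of the 77 sites, 24 were held by all 4 dexamethasone lists (31.2%, exact 95% interval 21.1 to 42.7%), against 25.4% of all sites of the genome. By gene there were 7 such sites for Csf1, 5 for Cxcl1, 4 for Lif, 3 each for Ccl2 and Vcam1, and 1 each for Il6 and Ptgs2. Mmp13 and Icam1 had none. Intervals cover counting error only, and sites of a gene are not independent of each other. None of the 24 lay within 5 kb of the point of its gene: the closest was the site at 7.4 kb from the Ccl2 point.

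**Figure D1:**
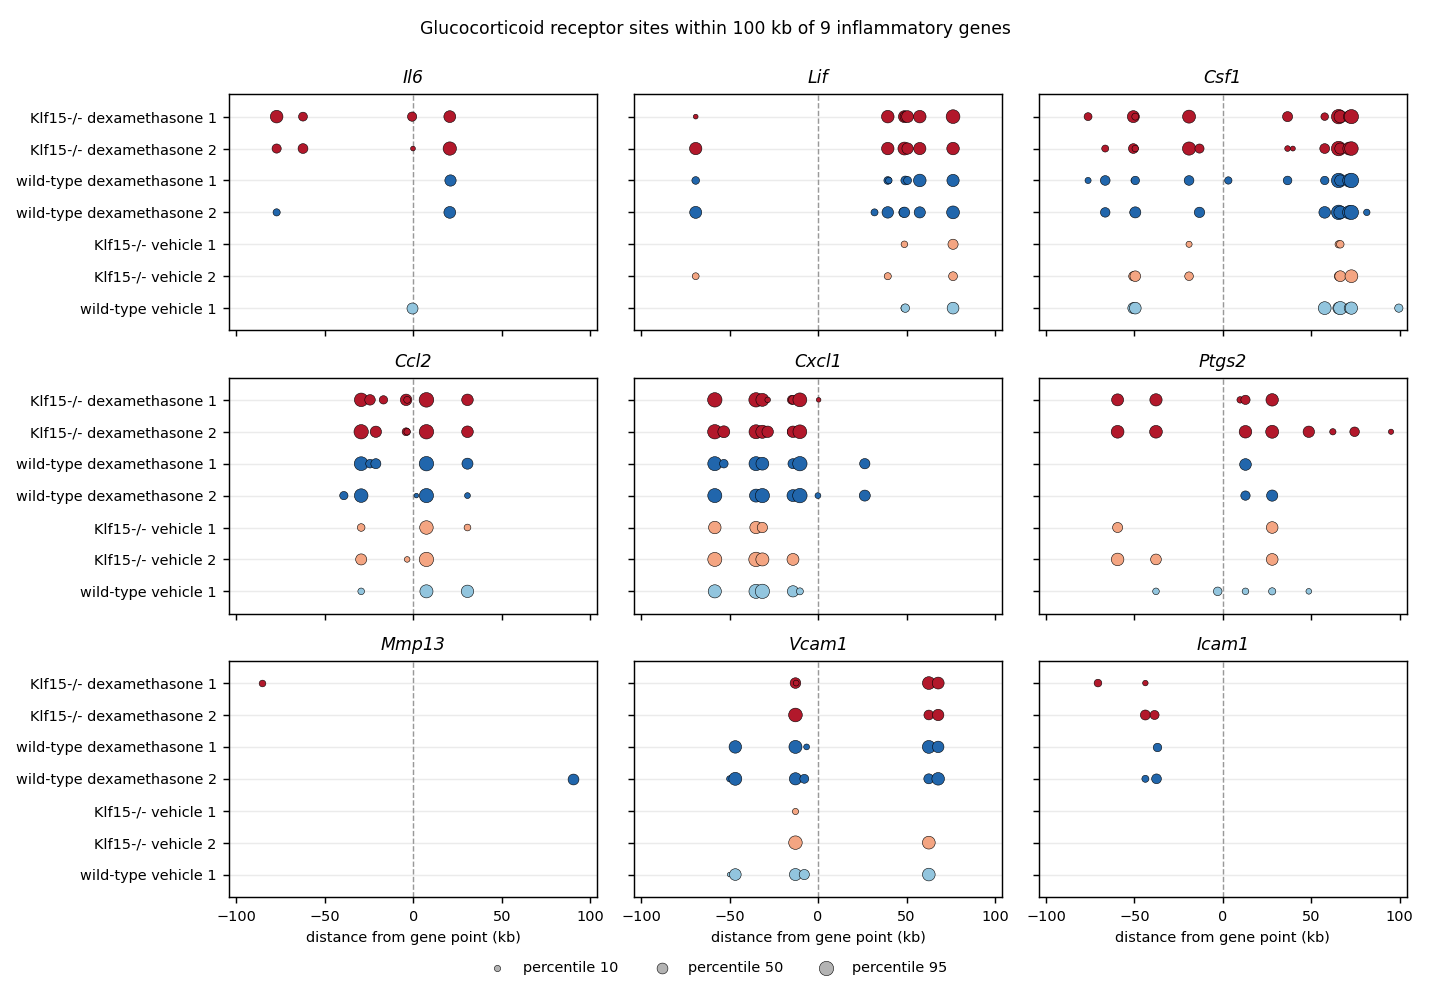
Sites within 100 kb of each of the 9 genes, by distance from the gene's point (x axis, kb) and by list (rows), with the symbol area growing with the score percentile within the list. Csf1 and Cxcl1 have columns of large symbols in all 4 dexamethasone rows, whereas Mmp13 has 2 sites of 1 list each.

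The windows were dense in receptor sites compared with the genome at large. The 9 windows had a median of 10 sites, against a median of 1 over 13198 bins of 200 kb, of which 36.7% had none. For sites held by all 4 dexamethasone lists the medians were 3 in the windows and 0 in the bins. Bins with at least as many sites as the Csf1 window (17) made up 0.546% of all bins, and bins with at least the 11 of Cxcl1 made up 3.75%. At the other end, 47.9% of bins had at least the 2 sites of Mmp13 and 28.5% at least the 4 of Icam1. Each window was placed at a gene and the bins were not, and the bins were not matched to the windows in gene density.

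**Figure D2:**
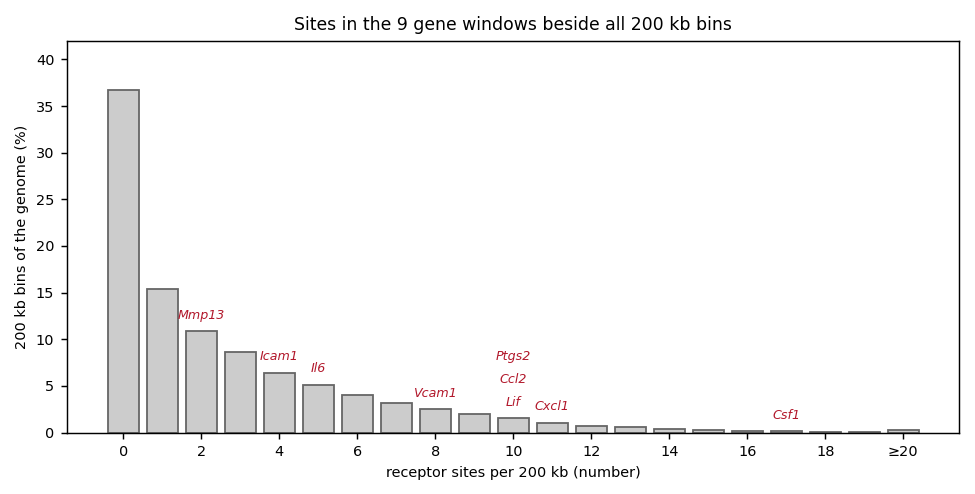
Number of receptor sites per 200 kb (x axis) in all bins of the genome (grey bars, % of bins), with the names of the 9 genes written above the bar of their own count. All 9 genes lie to the right of the median bin of 1 site, and Csf1 lies farthest out with 17.

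Il6, which encodes interleukin 6, a cytokine that drives the acute-phase response, had 5 sites and 1 that recurred in every dexamethasone list. That site lay 20.6 kb on the downstream side (chr5:30360578-30360613, mm9). It stood at percentiles 61.9 and 81.0 in the Klf15-/- dexamethasone lists and at 55.5 and 61.0 in the wild-type dexamethasone lists. No vehicle list of either genotype held it. The site nearest to the point in at least 2 lists, at -0.7 kb (chr5:30339341-30339355), stood at percentile 33.8 in the first Klf15-/- dexamethasone list and at 52.2 in the wild-type vehicle list. The other 5 lists did not hold that site, so at the gap of 200 bp neither treatment nor genotype was followed consistently. This depended on the gap, since the second Klf15-/- dexamethasone list had a weak summit at -0.2 kb (chr5:30339834, percentile 1.53). With a gap of 500 bp, Il6 had 2 sites of both Klf15-/- and neither wild-type dexamethasone list, in place of 1. A site at -62.4 kb (chr5:30277591-30277653) was held by both Klf15-/- dexamethasone lists alone, at percentiles 30.5 and 39.7. The nearest wild-type dexamethasone summit to it was 14.9 kb away. In GRCm38.p6, 3 other protein-coding genes lie within 100 kb of Il6, so these sites cannot be assigned to Il6 alone.

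Lif, which encodes leukemia inhibitory factor, a cytokine of the interleukin 6 family, had 10 sites, of which 9 lay on the side downstream of the gene's start. Its best-ranked site was 76.3 kb away (chr11:4236176-4236359) and was held by all 7 lists. Percentiles there were 86.6 and 70.2 in Klf15-/- and 66.9 and 74.2 in wild-type cells after dexamethasone. With vehicle they were 42.9 and 30.4 in Klf15-/- cells and 60.7 in wild-type cells. The site at 57.5 kb (chr11:4217447-4217579) had no vehicle summit and stood at 70.5 and 66.9 in the Klf15-/- dexamethasone lists, against 71.3 and 54.0 in the wild-type dexamethasone lists. The genotypes overlapped at this site. The nearest recurrent site, at 39.4 kb (chr11:4199419-4199464), had 71.0 and 69.4 in Klf15-/- and 20.9 and 57.7 in wild-type dexamethasone lists, and 15.8 in the second Klf15-/- vehicle list. The remaining site of all 4 dexamethasone lists, at -69.2 kb (chr11:4090789-4090860), ranged from percentile 1.60 to 67.9 among them. Both ends of that range came from the 2 Klf15-/- replicates. In GRCm38.p6 the window also holds Osm, which encodes oncostatin M, another cytokine of the same family, so these sites cannot be assigned to Lif alone.

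Csf1, which encodes the macrophage growth factor M-CSF, had 17 sites, the most of the 9 genes, and 7 of them were held by all 4 dexamethasone lists. The strongest was at 65.5 kb, upstream of the gene's start (chr3:107625302-107625626). It stood at percentiles 96.7 and 98.1 in Klf15-/- and 96.8 and 97.3 in wild-type cells after dexamethasone. In vehicle lists it was present too, at 17.3 and 29.8 in Klf15-/- and 60.0 in wild-type cells. The 4 dexamethasone values lay within a narrow band near the top of their lists, in both genotypes. Another 3 recurrent sites followed close by. They lay at 66.4 kb (chr3:107626318-107626452; percentiles 52.5 to 72.7 in dexamethasone lists), 71.5 kb (chr3:107631509-107631579; 61.2 to 82.4) and 72.7 kb (chr3:107632670-107632710; 84.3 to 97.4). Ahcyl1 is the only other protein-coding gene within 100 kb of the Csf1 start in GRCm38.p6, and the data do not tell which gene the sites act on, if any. The other 3 were weaker, at -50.6 kb (chr3:107509302-107509427; 1.17 to 63.7), -49.5 kb (chr3:107510429-107510547; 12.0 to 52.8) and 57.6 kb (chr3:107617480-107617792; 19.6 to 59.2). All 7 had a summit in at least 1 vehicle list. The nearest site in at least 2 lists, at -13.2 kb (chr3:107546761-107546773), was held by 1 replicate of each genotype after dexamethasone, at 32.9 in Klf15-/- and 45.2 in wild-type cells.

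Ccl2, which encodes a chemokine that attracts monocytes, had 10 sites, 3 of them in all 4 dexamethasone lists. The best-ranked lay 7.4 kb from the point (chr11:81857377-81857515). Percentiles were 98.9 and 96.2 in Klf15-/- and 96.2 and 92.5 in wild-type cells after dexamethasone. With vehicle they were 83.5 and 95.2 in Klf15-/- and 77.5 in wild-type cells. The site was thus highly ranked in all 7 lists, with or without ligand. The site at -29.5 kb (chr11:81820446-81820593) was also in all 7 lists, with 84.4 and 95.5 in Klf15-/- and 87.7 and 84.9 in wild-type dexamethasone lists. In vehicle lists it ranked lower, at 19.8 and 52.7 in Klf15-/- and 12.4 in wild-type cells. A broad site at 30.6 kb (chr11:81880411-81880816) ranged from 7.46 to 59.4 in the dexamethasone lists, and the lowest value was that of the second wild-type library. Ccl7, Ccl11, Ccl12 and Ccl8, genes of related chemokines, lie within 100 kb of Ccl2 in GRCm38.p6.

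Close to the Ccl2 point, 2 sites were held by both Klf15-/- dexamethasone lists and neither wild-type dexamethasone list. The site at -4.1 kb (chr11:81845874-81845897) stood at percentiles 57.4 and 21.9. The one at -3.5 kb (chr11:81846433-81846627), the nearest in at least 2 lists, stood at 14.0 and 11.8, and at 6.22 in the second Klf15-/- vehicle list. The nearest wild-type dexamethasone summit was 5.11 kb from the site at -3.5 kb and 5.84 kb from the one at -4.1 kb.

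Cxcl1, which encodes a chemokine that attracts neutrophils, had 11 sites, and its 5 recurrent ones all lay upstream of the gene's start within a stretch of 48.2 kb. The best-ranked was at -58.4 kb (chr5:91261592-91261678). After dexamethasone it stood at percentiles 95.9 and 95.1 in Klf15-/- and at 90.8 and 91.0 in wild-type cells. With vehicle it stood at 69.9 and 90.6 in Klf15-/- and 78.6 in wild-type cells. A further 2 sites were likewise in all 7 lists, at -35.1 kb (chr5:91284800-91284951; 76.5 to 95.3 in dexamethasone lists) and -31.5 kb (chr5:91288419-91288530; 74.2 to 92.9). The nearest site in at least 2 lists, at -10.3 kb (chr5:91309686-91309744), had another pattern. It stood at 88.3 and 87.0 in Klf15-/- and 95.3 and 96.6 in wild-type dexamethasone lists, against no summit in either Klf15-/- vehicle list and percentile 15.2 in the wild-type vehicle list. The fifth, at -14.2 kb (chr5:91305700-91305821), ranged from 30.1 to 63.5 in the dexamethasone lists. Cxcl15 and Cxcl2, also neutrophil chemokine genes, lie within 100 kb of Cxcl1 in GRCm38.p6.

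Another 3 Cxcl1 sites were held by both dexamethasone lists of a single genotype. The site at -28.5 kb (chr5:91291427-91291476) was held at 6.15 and 56.9 in Klf15-/- cells, and the one at -14.8 kb (chr5:91305220-91305223) at 31.4 and 33.4 in Klf15-/- cells. A wild-type dexamethasone summit lay only 543 bp from the site at -14.8 kb. The site at 26.4 kb (chr5:91346354-91346388) was held at 44.2 and 52.1 in wild-type cells, 26.1 kb from any Klf15-/- dexamethasone summit.

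Ptgs2, which encodes cyclooxygenase 2, the inducible enzyme of prostaglandin synthesis, had 10 sites and differed in number of summits between the genotypes. Summits within 100 kb numbered 5 and 8 in Klf15-/- and 1 and 2 in wild-type cells after dexamethasone. With vehicle they numbered 3 and 3 in Klf15-/- and 5 in wild-type cells. Klf15-/- dexamethasone lists thus had more than their vehicle lists, and wild-type dexamethasone lists fewer than theirs. Ptgs2 alone of the 9 windows had that pattern, and it was singled out after the counts were seen. The pattern was seen in 2.31% of the 200 kb bins of the genome with a summit. Those bins were not matched to the window in number of sites. With summits at or above the median score of their list alone, the mean change in wild-type cells was 1 in place of -3.5. With all lists of equal length the changes were 0.5 in Klf15-/- and -0.5 in wild-type cells, against 3.5 and -3.5 as deposited. Only the site at 12.8 kb (chr1:151962724-151962836), also the nearest in at least 2 lists, was in all 4 dexamethasone lists. Its percentiles were 33.9 and 70.7 in Klf15-/- and 59.8 and 34.7 in wild-type dexamethasone lists. The Klf15-/- vehicle lists did not hold it, and the wild-type vehicle list had it at 12.4. The genotypes overlapped at that site. No other protein-coding gene lies within 100 kb of Ptgs2 in GRCm38.p6.

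The Ptgs2 window held 2 of the 7 sites found in both Klf15-/- and neither wild-type dexamethasone list, and these were the farthest from any wild-type dexamethasone summit. The site at -59.5 kb (chr1:151890447-151890533) stood at percentiles 63.8 and 73.3 in Klf15-/- dexamethasone lists and at 41.9 and 70.6 in Klf15-/- vehicle lists. No wild-type list held it with either treatment, and the nearest wild-type dexamethasone summit was 72.2 kb away. The site at -37.8 kb (chr1:151912153-151912218) stood at 67.1 and 72.7 in Klf15-/- dexamethasone lists, 49.1 in the second Klf15-/- vehicle list and 12.4 in the wild-type vehicle list. The nearest wild-type dexamethasone summit to it was 50.5 kb away. Chromosome 1 as a whole held a larger part of the Klf15-/- dexamethasone summits, 7.29% and 7.30%, against 6.58% and 6.53% of the wild-type ones. This was not particular to chromosome 1. On chromosomes 5, 9 and 11 both Klf15-/- shares were also the larger, while on chromosome 3 the genotypes overlapped. On chromosome 9 the shares were 5.04% and 5.11%, against 4.46% and 4.50%. The part of these chromosome shares in the summit counts of Ptgs2 and the other windows was not tested.

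Mmp13, which encodes a collagenase, had the fewest sites, with 2, and each was in a single list. The first lay at -85.7 kb (chr9:7184303) at percentile 12.8 in the first Klf15-/- dexamethasone list. The second lay at 90.3 kb (chr9:7360310) at percentile 50.1 in the second wild-type dexamethasone list. No vehicle list had a summit in the window, and the nearest site held by all 4 dexamethasone lists was at -729.6 kb from the Mmp13 point. The gene lies in a cluster of matrix metalloproteinase genes, of which Mmp12 and Mmp1b are within 100 kb in GRCm38.p6.

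Vcam1, which encodes an adhesion receptor for leukocyte integrins, had 8 sites, 3 of them in all 4 dexamethasone lists. The best-ranked, at 67.9 kb (chr3:115897843-115897919), had no vehicle summit. Its percentiles were 62.6 and 56.3 in Klf15-/- and 57.8 and 71.1 in wild-type cells, so the genotypes overlapped. The site at -12.8 kb (chr3:115817017-115817303) was in all 7 lists and ranged from 47.7 to 85.8 in the dexamethasone lists, and the one at 62.6 kb (chr3:115892432-115892765) from 38.9 to 75.2. The nearest in at least 2 lists, at -7.8 kb (chr3:115822174-115822193), was in wild-type lists alone, at 30.7 in the second dexamethasone list and 43.4 in the vehicle list. A site at -46.8 kb (chr3:115783199-115783289) was held by wild-type lists alone with both treatments, at 70.0 and 75.8 after dexamethasone and 60.0 with vehicle. The nearest Klf15-/- dexamethasone summit to it was 33.7 kb away. Vcam1 was also the window where Klf15-/- dexamethasone lists had fewer summits, 4 and 3, than the wild-type dexamethasone lists, with 5 and 6. Extl2 is the only other protein-coding gene within 100 kb of Vcam1 in GRCm38.p6.

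Icam1, which encodes another adhesion receptor of this kind, had 4 sites, all upstream of its start, and no vehicle summit. None was in all 4 dexamethasone lists. The site at -37.5 kb (chr9:20782506-20782525), the nearest, was held by both wild-type dexamethasone lists alone, at 26.8 and 38.8, with a Klf15-/- dexamethasone summit 1.09 kb away. A site at -43.8 kb (chr9:20776215-20776282) was held by 3 dexamethasone lists, at 5.56 and 41.2 in Klf15-/- cells and 15.2 in wild-type cells. Just outside the window, 119.7 kb from the point, a site was in all 4 dexamethasone lists at percentiles 80.6 to 85.6 (chr9:20939612-20939689). Icam4, Icam5 and Tyk2, the first 2 of them adhesion receptor genes, are among the 9 protein-coding genes within 100 kb of Icam1 in GRCm38.p6.

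The number of sites depended on the limit of 100 kb. It was 49 with 50 kb and 124 with 200 kb, and the Csf1 sites in all 4 dexamethasone lists, 7 with 100 kb, were 1 with 50 kb. The site closest to it from inside was that of Csf1 at 99.5 kb, held by the wild-type vehicle list alone at percentile 25.1. Closest from outside was a site 100.4 kb from the Vcam1 point, held by 4 lists, with 70.4 as its highest percentile.

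**Figure D3:**
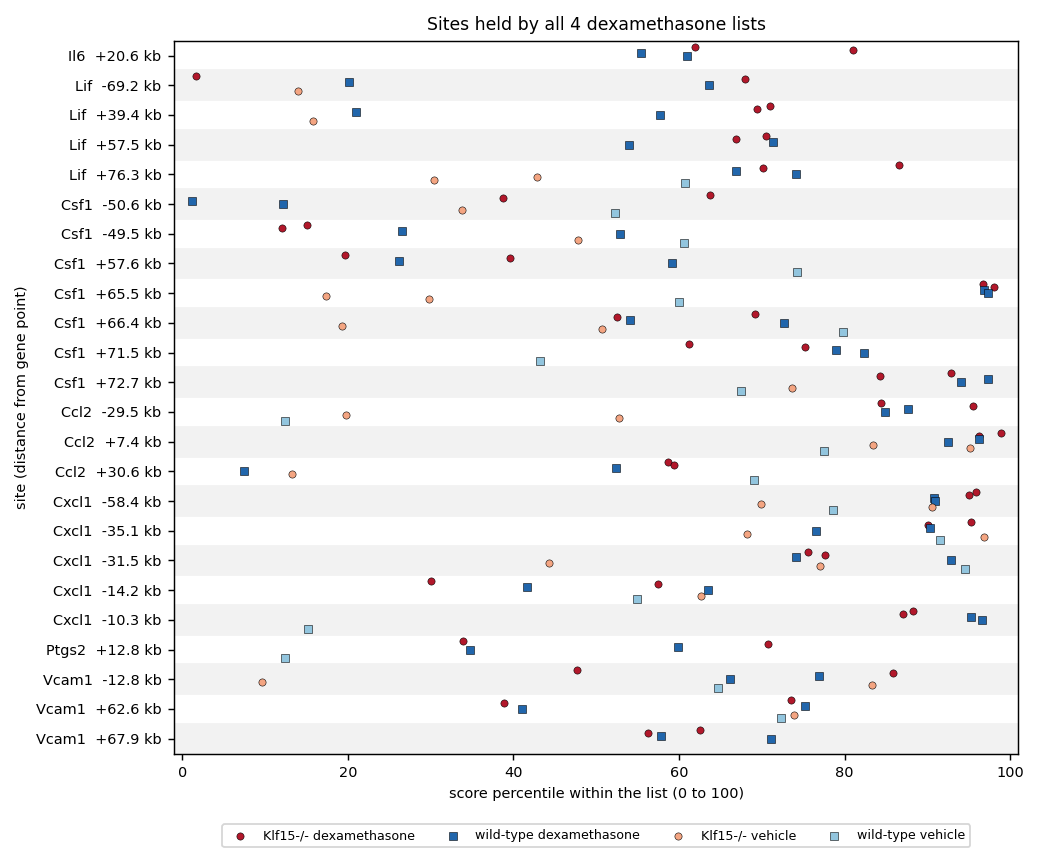
Score percentile within each list (x axis, 0 to 100) of the 24 sites held by all 4 dexamethasone lists (rows, named by gene and distance from its point), with 1 symbol per list that held the site. Symbols of Csf1 at 65.5 kb and Ccl2 at 7.4 kb after dexamethasone all lie at 92.5 or higher, and 3 rows have no vehicle symbol.

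Most of the recurrent sites also appeared without ligand. Of the 24 sites in all 4 dexamethasone lists, 21 had a summit in some vehicle list and 9 were in all 7 lists. The 3 without a vehicle summit were those of Il6 at 20.6 kb, Lif at 57.5 kb and Vcam1 at 67.9 kb. They made up 12.5% of the 24 (exact 95% interval 2.66 to 32.4%), against 30.9% of such sites over the genome, a value inside the interval. There were 5 such sites when wild-type dexamethasone library 1, wild-type dexamethasone library 2 or Klf15-/- vehicle library 2 was left out. When only vehicle summits at or above the median score of their list counted, 8 of the 24 were without one (33.3%), against 49.8% over the genome. The first Klf15-/- vehicle list held 10 of the 24 and the second 16, and the wild-type vehicle list held 19. Over the genome, the same lists held 31.3%, 47.7% and 60.0% of such sites, in the same order.

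Sites of all 7 lists made up 9 of 77 (11.7%, 5.49 to 21.0%), against 6.22% over the genome, within the interval. They belonged to Cxcl1 (3), Csf1 (2), Ccl2 (2), Lif (1) and Vcam1 (1). Occupancy by the receptor without ligand cannot be told apart here from signal independent of the receptor, since no control library of the peak calls is named. Sites of a vehicle list with no dexamethasone summit were few, 2 of 77 (2.60%, 0.316 to 9.07%), against 12.7% over the genome, above the interval. These were the Ptgs2 site at -2.9 kb and the Csf1 site at 99.5 kb, both of the wild-type vehicle list. Sites of 1 list alone made up 25 of 77 (32.5%, 22.2 to 44.1%), against 38.7%.

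The rank of the recurrent sites was near that of such sites elsewhere. Their median percentiles were 69.8 and 70.4 in Klf15-/- cells and 69.1 and 68.6 in wild-type cells after dexamethasone, against 73.8, 74.2, 68.1 and 70.5 for all 8977 such sites of the genome in the same lists. At or above percentile 90 in all 4 dexamethasone lists were 3 of the 24 (12.5%), those of Csf1 at 65.5 kb, Ccl2 at 7.4 kb and Cxcl1 at -58.4 kb, against 10.1% over the genome. All 3 were in the vehicle lists too.

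The dexamethasone lists of Klf15-/- cells had more summits in the windows, but were also the longer lists. Over the 9 windows there were 49.0 ± 1.41 summits (SD, n = 2) in Klf15-/- and 40.5 ± 2.12 (n = 2) in wild-type dexamethasone lists. With vehicle there were 18.5 ± 3.54 (n = 2) in Klf15-/- and 31 in the wild-type list. As a share of the list this was 0.240% and 0.2479% in Klf15-/- and 0.2496% and 0.2481% in wild-type dexamethasone lists. The second Klf15-/- share and the second wild-type share were nearly tied, so the shares do not order the genotypes as the counts do. With vehicle it was 0.218% and 0.260% in Klf15-/- and 0.309% in wild-type cells, the largest share of the 7. Klf15-/- dexamethasone lists had more summits than both Klf15-/- vehicle lists in 8 of the 9 windows, all but Mmp13, and in 51.4% of the 200 kb bins with a summit. Wild-type dexamethasone lists had more than the wild-type vehicle list in 5 (Lif, Csf1, Ccl2, Cxcl1 and Icam1) and fewer in 1 (Ptgs2). Of the same bins, 35.8% had more summits in both wild-type dexamethasone lists than with vehicle, and 7.88% had fewer. These bins were not matched to the windows in number of sites. Most windows held more sites than most bins, so windows and bins are not like for like here.

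**Figure D4:**
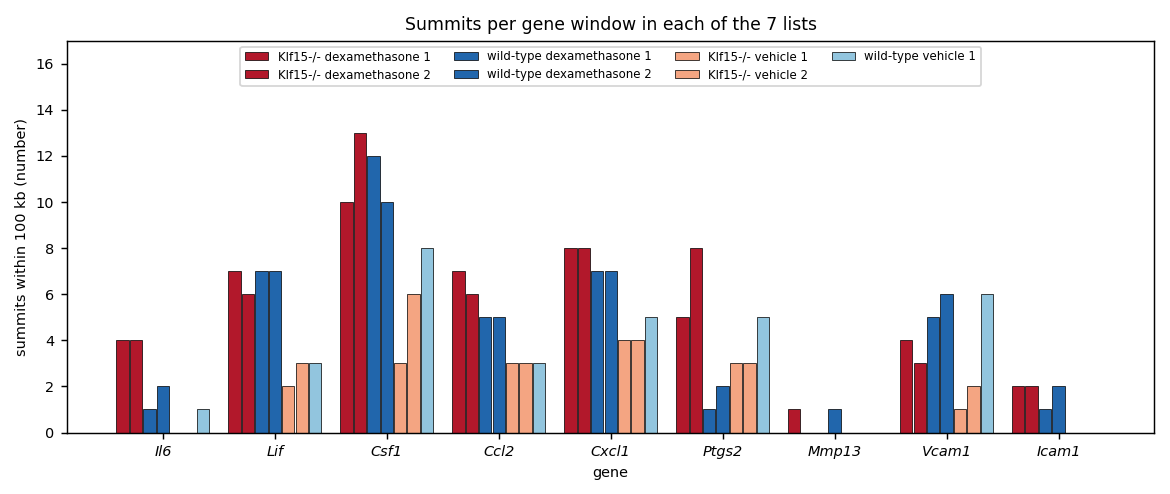
Number of summits within 100 kb of each gene (y axis) in each of the 7 lists (bars, 1 per list, grouped by gene). Ptgs2 has bars of 5 and 8 for Klf15-/- and 1 and 2 for wild-type cells after dexamethasone, whereas Csf1 reaches 10 to 13 in all 4 dexamethasone lists.

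Between the genotypes after dexamethasone, the windows of Il6, Ccl2, Cxcl1 and Ptgs2 had more summits in both Klf15-/- lists than in both wild-type lists, and Vcam1 had fewer. The counts were 4 and 4 against 1 and 2 for Il6, 7 and 6 against 5 and 5 for Ccl2, and 8 and 8 against 7 and 7 for Cxcl1. Over all 200 kb bins with a summit, 23.3% had more in both Klf15-/- lists and 6.63% had fewer, and the Klf15-/- lists were the longer ones. These bins, too, were not matched to the windows in number of sites. Sites held by both Klf15-/- and neither wild-type dexamethasone list numbered 7 of 77 (9.09%, 3.73 to 17.8%), close to the 9.78% of the genome. Sites held by both wild-type and neither Klf15-/- dexamethasone list numbered 3 (3.90%, 0.811 to 11.0%), close to 4.39%. These shares do not set the 9 genes apart from the genome. With the dexamethasone lists cut to equal length there were 4 sites of Klf15-/- alone and 5 of wild type alone, so the order of 7 against 3 turned round. The 7 rested on both replicates: leaving out Klf15-/- dexamethasone library 1 gave 15, leaving out its replicate gave 14, and leaving out wild-type dexamethasone library 2 gave 11. The 3 became 12 when wild-type dexamethasone library 1 was left out and 6 when library 2 was.

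Replicates shared the sites of these windows about as often as elsewhere after dexamethasone. Both Klf15-/- dexamethasone lists held 38 of the 60 sites that either held (63.3%, against 58.9% over the genome), and both wild-type ones held 28 of 53 (52.8%, against 59.3%). Where both held a site, its percentiles differed by a median of 9.38 in Klf15-/- and 11.5 in wild-type cells. The largest gap after dexamethasone was 66.3 points, between the Klf15-/- dexamethasone replicates at the Lif site at -69.2 kb. Both Klf15-/- vehicle lists held 12 of 23 (52.2%, against 30.4%), with a median gap of 24.7 and a largest gap of 73.7, at the Vcam1 site at -12.8 kb.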

How the data were processed

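Receptor ChIP-seq was deposited as 1 list of peak summits per library, each a 1 bp position with a score. Per the submitters' processing notes, CASAVA, Bowtie2 and SAMtools were used with the build mm9. What called the peaks, against which control and at which threshold is not given in the sources used here. The scale of the deposited score is not stated, and the lists started at scores of 3.01 to 3.38.

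Summits of the 7 lists (98170) were joined by single linkage at a gap of at most 200 bp. Sites with a summit within 100 kb of a gene's mm9 point were kept. Shares have exact (Clopper-Pearson) 95% intervals. Per gene, the text names the site ranked highest in the dexamethasone list where it ranks lowest, the nearest site in at least 2 lists, all other sites of 4 dexamethasone lists, and sites of both lists of 1 genotype. Genes and lists were chosen with earlier results of these data known. No sequence of the sites was read, since no mm9 genome was used here. Promoters and neighbour names come from RefSeq (GRCm38.p6), whose coordinates were not set against the summits. Alternatives were other gaps, windows, score limits, list lengths and each replicate left out. Tools were pandas 2.3.3, numpy 2.4.6 and scipy 1.17.1 under Python 3.11.15, with plots by matplotlib 3.10.9. The linkage was tested on simulated lists with planted sites.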

Additional observations from a re-analysis of the deposited data

Results flagged for a closer look

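After dexamethasone the Ptgs2 window gained summits in Klf15-/- cells and lost them in wild-type cells, whichever libraries were compared. The mean number of summits within 100 kb changed by 3.5 in Klf15-/- cells (5 and 8 with dexamethasone, 3 and 3 with vehicle) and by -3.5 in wild-type cells (1 and 2 with dexamethasone, 5 in the single vehicle library). The difference was not tested. Ptgs2 was picked from the 9 windows after the counts were seen, as the only window with this pattern. Such a pattern was seen in 2.31% of the 200 kb bins of the genome with a summit. Those bins were not matched to the window in number of sites, and only 5.26% of all bins had at least its 10 sites. The 5 wild-type vehicle summits were weak, at percentiles 27.8, 16.7, 12.4, 12.4 and 6.45 of their list. With summits at or above the median score of their list alone, the wild-type change was 1 and the direction was no longer opposite. With all lists cut to equal length, the changes were 0.5 in Klf15-/- and -0.5 in wild-type cells.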

How the results depend on the processing

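Of 470 values recomputed under alternatives, 364 stayed within 1.5 times the reported one, 105 moved and 1 reversed. The reversed one was the wild-type change in Ptgs2 summits, 1 with summits at or above the median score in place of -3.5. Values for single genes and the Ptgs2 change were recomputed by a choice made after the data were seen. Of the values for counts over all 9 genes, 64 stayed and 29 moved. The total of 364 includes values with little or no room to change. The Ptgs2 summit counts do not depend on the gap. A vehicle list can alter classes of dexamethasone lists only through linkage. A window of 50 kb gave 49 sites, 12 in all 4 dexamethasone lists, 1 of them without and 11 with a vehicle summit. A window of 200 kb gave 124 sites, 32 in all 4 dexamethasone lists with a vehicle summit, and 17 of both Klf15-/- dexamethasone lists alone. Summits at or above the median score gave 44 sites, 14 in all 4 dexamethasone lists, 6 without and 8 with a vehicle summit, and 1 of both wild-type lists alone. Counting only vehicle summits at or above that median, 8 were without one. Equal length of the dexamethasone lists (15628) gave 4 sites of Klf15-/- alone and 5 of wild type alone, the reverse of the order of 7 and 3 in the lists as deposited. Equal length of all lists (7325) gave 38 sites, 9 in all 4 dexamethasone lists around 4 genes, 1 without and 8 with a vehicle summit, and 4 of Klf15-/- alone. Linkage gaps of 100 and 500 bp moved none of the counts over all 9 genes by over 1.5 times. With each replicate left out in turn, sites without a vehicle summit ranged from 3 to 5, sites of Klf15-/- alone from 7 to 15 and of wild type alone from 3 to 12. Sites of a group left with 1 library need no second library, which raises these counts. No paired analysis was possible because no test was made between lists and the labels do not tie libraries that share a number. The unknown read depth limits every statement on absence.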
